A study of Mus musculus with 24 samples.

Results

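Wild-type cerebellum was compared with wild-type olfactory bulb, a pair of mouse brain regions in which granule cells are the most numerous neurons. The members of the comparison are 6 of the 24 libraries of the series: the 3 wild-type cerebellum libraries and the 3 wild-type olfactory bulb libraries, chosen by region and genotype alone and by no measured value. All came from C57BL/6 mice, and each region was dissected from the brain. No transgene, Cre driver or agent is named for the wild-type groups. The labels used here give neither the age nor the sex of the mice, nor whether the 3 libraries of a group came from separate animals, so every p-value below measures only the spread between these libraries. The other libraries used here were the 6 of Cdr1as knockout cerebellum and olfactory bulb (3 of each; strain C57BL/6), in which the region comparison was repeated, and the 6 of wild-type cortex and hippocampus, which give context for levels. Each library held total RNA depleted of ribosomal RNA, so transcripts without a poly(A) tail were also counted.

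The 3 cerebellum libraries held 30459968, 15771263 and 16410122 counts in genes, and the 3 bulb libraries 7395560, 21263970 and 11953403. Bulb library 1, the shallowest, had counts in 16483 genes, and the deepest-covered bulb library in 22619. Between libraries of a region the correlation across genes of log2 counts-per-million (CPM) values was 0.984 to 0.987 in cerebellum and 0.945 to 0.992 in bulb, against 0.815 to 0.880 between regions. Some libraries stood apart. For some called genes and list medians that moved by over 1.5-fold when 1 library was left out, the value without that library is given. For others it is not, so its absence does not mean that a value was stable. Kcnj4, Nptx2, Scn3a, Scn3b, Gabrg3, Shisa3, Sp8 and Aqp1 are among those that moved that far without cerebellum library 1. In cerebellum library 1, 122 of 10991 well-covered genes lay more than 2-fold above both other cerebellum libraries, against 4 and 16 in the other two, and 89 of the 122 were genes called more than 2-fold higher in bulb. Of all genes tested, 8.24% were so called. Bulb libraries 1, 2 and 3 had 30, 11 and 20 such genes, of which 9, 10 and 1 were called more than 2-fold higher in cerebellum, against 5.45% of all genes tested. Cerebellum library 3 lacked most of the choroid plexus transcripts that the other 2 cerebellum libraries held. Bulb library 3 was high in collagen and immediate early transcripts.

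Granule cells are small, densely packed neurons, but those of cerebellum and bulb differ in origin, transmitter and wiring. Cerebellar granule cells arise from the rhombic lip of the hindbrain, release glutamate, and send parallel fibres to the Purkinje cells, the GABAergic output neurons of the cerebellar cortex. Granule cells of the olfactory bulb arise from neuroblasts that migrate into the bulb throughout life, have no axon, and release GABA from dendrites onto mitral and tufted cells, the glutamatergic output neurons of the bulb. Periglomerular cells, the other large class of bulb interneuron, surround the glomeruli in which the axons of olfactory sensory neurons end, and a subset of them makes dopamine.

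Of 16091 genes tested, 6736 (41.9%) differed between the regions at an adjusted p under 0.05 by edgeR's quasi-likelihood test with Benjamini-Hochberg adjustment. Of all genes tested, 19.8% were higher in cerebellum and 22.1% higher in bulb. Since so many genes differed, the counts below use a stricter rule, edgeR's test of a difference of more than 2-fold, under which 2203 genes (13.7%) were called: 877 (5.45%) higher in cerebellum and 1326 (8.24%) higher in bulb. In 2202 of the 2203 the 2 regions' libraries did not overlap, as in 8837 (54.9%) of all genes tested. The median log2 fold change (cerebellum over bulb, as throughout) over all genes was 0.0082, and the middle part of all genes, from the 25th to the 75th percentile, lay between −0.47 and 0.37. Among the genes of the lists described below, 289 of 583 tested were called more than 2-fold, 128 higher in cerebellum and 161 higher in bulb. The lists hold markers of cell types and regions, and a member that passed the filter on low counts only through the region where it is high had to differ, so these counts describe the regions and support no claim about the lists. In bulk tissue, fewer cells of a type and less RNA per cell cannot be told apart, and this holds for every marker below.

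**Figure D1:**
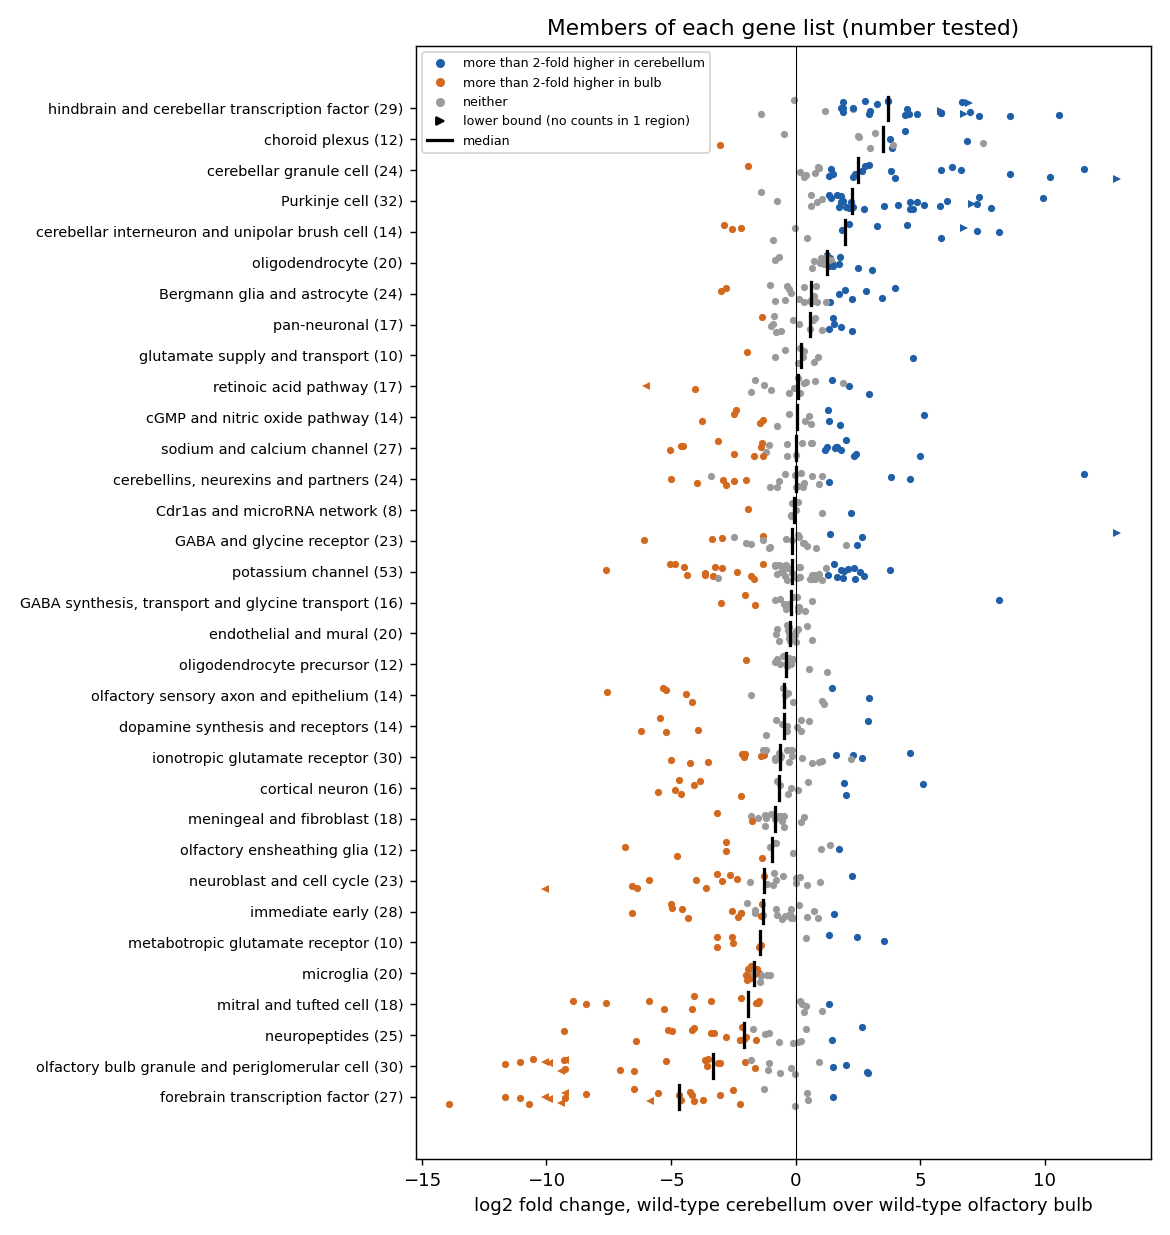
Each point is 1 gene of a list, placed at its log2 fold change between wild-type cerebellum and wild-type olfactory bulb (x axis, positive for cerebellum), with the number of members tested beside each list name and a black bar at the list's median. Blue and orange points passed the more-than-2-fold test and triangles mark lower bounds for genes without a count in 1 region; the medians run from 3.73 for hindbrain and cerebellar transcription factors to −4.67 for forebrain transcription factors, the latter −7.37 without cerebellum library 1.

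Granule cell genes and regional transcription factor genes were among the 10 largest differences in each direction. Gabra6, which encodes the GABA-A receptor alpha 6 subunit of cerebellar granule cells, had 572, 589 and 600.0 CPM in the 3 cerebellum libraries and no count in any bulb library. Against a floor of 3 counts over the 3 bulb libraries this is at least 7687-fold higher in cerebellum. Cbln3, a secreted cerebellin that granule cells place at parallel fibre synapses, had 1072, 1144 and 1149 CPM in cerebellum and 0.530, 0.316 and 0.328 CPM in bulb. In the other direction Dlx2, a homeodomain factor of GABAergic forebrain neurons, had 56.04, 44.5 and 54.6 CPM in the 3 bulb libraries and no count in cerebellum, at least 1066-fold higher in bulb. Th, the tyrosine hydroxylase that makes dopamine in periglomerular cells, had 133, 123 and 137 CPM in bulb and 3.69, 2.58 and 4.29 CPM in cerebellum. The 10 largest in favour of cerebellum also held Mybpc3, a myosin-binding protein better known from heart (58.6, 73.1 and 72.4 CPM against 0, 0.0452 and 0 CPM), Tbata (22.01, 32.1 and 34.6 CPM against 0, 0.0452 and 0 CPM) and Cnpy1 (278, 315 and 324 CPM against 0, 0.588 and 0.656 CPM). Those in favour of bulb held Trdn, a protein of muscle calcium stores, with 19.9, 17.7 and 18.8 CPM and no cerebellum count, at least 396-fold. In all of these genes every library of the high region lay above every library of the low one.

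The sequences around the start sites of these 4 genes are shown as examples from cerebellar granule cells (Gabra6 and Cbln3), from GABAergic forebrain neurons (Dlx2) and from dopaminergic periglomerular cells (Th). Each is 300 bases, 5′ to 3′ on the gene's own strand, from RefSeq on GRCm38.p6, a newer build than the mm9 to which the reads were aligned. Gabra6 is read from chr11:42321023-42321322 (minus strand), Cbln3 from chr14:55884207-55884506 (minus strand), Dlx2 from chr2:71546705-71547004 (minus strand) and Th from chr7:142899946-142900245 (minus strand), and each window spans the upstream promoter and the first transcribed bases. Capitals mark a match to the cyclic AMP response element TGACGTCA, which CREB proteins bind.
Gabra6: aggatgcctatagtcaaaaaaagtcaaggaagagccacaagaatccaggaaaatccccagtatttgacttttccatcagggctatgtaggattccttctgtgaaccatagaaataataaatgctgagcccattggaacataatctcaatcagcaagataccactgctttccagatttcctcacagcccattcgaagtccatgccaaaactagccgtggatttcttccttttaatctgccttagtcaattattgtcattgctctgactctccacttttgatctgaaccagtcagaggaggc
Cbln3: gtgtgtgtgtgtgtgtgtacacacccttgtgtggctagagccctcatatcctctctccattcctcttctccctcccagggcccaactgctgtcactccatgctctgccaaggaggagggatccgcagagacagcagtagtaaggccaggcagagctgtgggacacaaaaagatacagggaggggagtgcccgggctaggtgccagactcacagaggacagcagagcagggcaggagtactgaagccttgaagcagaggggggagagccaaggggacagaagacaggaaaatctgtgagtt
Dlx2: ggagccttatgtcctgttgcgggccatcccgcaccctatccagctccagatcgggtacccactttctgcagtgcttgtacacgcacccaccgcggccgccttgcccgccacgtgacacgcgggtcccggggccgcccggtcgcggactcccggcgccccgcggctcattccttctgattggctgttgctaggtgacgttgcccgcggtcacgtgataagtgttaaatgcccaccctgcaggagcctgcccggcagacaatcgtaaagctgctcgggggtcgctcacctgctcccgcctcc
Th: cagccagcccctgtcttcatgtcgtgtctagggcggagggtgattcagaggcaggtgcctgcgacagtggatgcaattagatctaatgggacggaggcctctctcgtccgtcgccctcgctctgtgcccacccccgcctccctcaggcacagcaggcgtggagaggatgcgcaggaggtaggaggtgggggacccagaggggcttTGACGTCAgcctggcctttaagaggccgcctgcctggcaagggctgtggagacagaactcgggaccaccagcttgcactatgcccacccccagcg
Of these 4 windows only that of Th held TGACGTCA, beginning at position −45 from the start site. Promoter entries were matched for 11326 of the 16091 genes tested, and 4 motifs were searched in them on both strands. TGACGTCA was present in 3.18% of these, in 2.67% of the 599 matched genes more than 2-fold higher in cerebellum and in 2.6% of the 884 higher in bulb. The E-box CAGCTG was present in 15.3% of the promoters of tested genes, 16% of the cerebellum set and 20.2% of the bulb set. The homeodomain core TAATTA was present in 2.62%, 3.51% and 3.62% of the same sets. The TATA box TATAAA was present in 6.97%, 7.18% and 11% of them. The 4 printed windows held none of the last 3, which says only that these letters are not in these windows. A match is a description of the sequence and not evidence that a factor binds there.

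Transcription factor genes of hindbrain and of forebrain lay on opposite sides of the comparison. Of 29 tested genes for hindbrain and cerebellar factors (of 36 matched), 25 were more than 2-fold higher in cerebellum and 0 in bulb, with a median log2 fold change of 3.73, and 7 were too low in both regions to test. Of 27 tested genes for forebrain factors (of 29), 22 were more than 2-fold higher in bulb and 1 in cerebellum, with a median of −4.67, or −7.37 without cerebellum library 1 and −6.03 with a stricter filter on low counts (22 genes). Without cerebellum library 1, 1 hindbrain factor was more than 2-fold higher in bulb. En2, an engrailed factor of the midbrain and hindbrain boundary, had 131, 103 and 129 CPM in cerebellum and 0, 0.136 and 0 CPM in bulb (10.59 ± 0.31 SE on the log2 scale, adjusted p of the 2-fold test 5.51e-08). Only bulb library 2 held a count of En2, and the fitted value without it, against no bulb count, was 13.93, which depends on the prior count and is no bound. Its relative En1 was low, with 6.19, 1.93 and 3.34 CPM in cerebellum and no count in bulb, at least 57.5-fold. Pax2, a factor of inhibitory interneuron precursors, and Pax3 were at least 109-fold and 126-fold higher in cerebellum, again with no bulb count. Lhx1 and Skor2, factors of Purkinje cells, averaged 63.7 and 10.7 CPM in cerebellum, against 0.339 and 0 in bulb.

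Zic1 and Zic2, zinc finger factors kept by mature cerebellar granule cells, were higher in cerebellum without being absent from bulb. Zic1 had 912, 697 and 729 CPM against 121, 112 and 102 CPM in bulb (2.81 ± 0.12, adjusted p of the 2-fold test 1.30e-06). Its exons overlap those of Zic4, and whether the counting used strand is not given, so the assignment of reads from the shared stretch is uncertain. The same limit holds for Neurod1, Pcp2, Gnal, Gria2, Gria4, Grin1, Grm7, Nrxn2, Kcnh3, Slc1a1, Slc6a9, Penk and Islr, each of which shares exon sequence with another gene of the annotation. Reads that the counting set aside as ambiguous made up 0.196% to 0.266% of the entries of each of the 6 libraries. Pax6, which serves granule cells of the rhombic lip as well as dopaminergic periglomerular cells, differed less: 164, 188 and 175 CPM in cerebellum and 93.7, 93.95 and 84.2 CPM in bulb, a log2 fold change of 0.95 ± 0.086 (adjusted p 2.21e-05) that did not pass the more-than-2-fold test. In cortex and hippocampus its mean was 12.1 and 10.8 CPM when the 12 wild-type libraries of 4 regions were scaled together. All 6 libraries of the granule-cell-rich regions lay above those means, with the cerebellum libraries all above the bulb libraries; the difference from cortex and hippocampus was not tested. Nfib, a nuclear factor I gene, averaged 448 CPM in cerebellum and 199 in bulb (1.17 ± 0.079), just outside the 2-fold test (adjusted p 0.0509), inside it without cerebellum library 1 (0.0302), bulb library 1 (0.0497) or bulb library 2 (0.0396), and inside it when the replicate number was fitted as a block (adjusted p 0.0248).

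The Dlx genes, which specify GABAergic neurons of the ventral forebrain, lay far to the bulb side. Dlx1 had 188, 195 and 194 CPM in bulb and 0.0676, 0.129 and 0.0630 CPM in cerebellum. It shares exon sequence with the antisense transcript Dlx1as, so the assignment of reads from the shared stretch is uncertain. Dlx5 and Dlx6 had no count in cerebellum and were at least 679-fold and 619-fold higher in bulb, and the noncoding Dlx6os1 averaged 362 CPM in bulb with 1 cerebellum library above 0, at 0.0338 CPM. Sp8, a zinc finger factor of periglomerular interneurons, had 127, 139 and 122 CPM in bulb and 0.0676, 0 and 0 CPM in cerebellum. Meis2, a homeodomain factor abundant in bulb granule cells, had 865, 933 and 871 CPM in bulb and 20.2, 4.13 and 3.47 CPM in cerebellum, where library 1 was high; its log2 fold change was −6.48 ± 0.77 and −7.86 without that library. The 1 forebrain list member more than 2-fold higher in cerebellum was Etv1 (438, 390.3 and 413 CPM against 167, 140.2 and 129.9 CPM), an ETS factor that cerebellar granule cells also express.

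Genes of cerebellar granule cells were higher in cerebellum in most cases. Of 24 tested (of 25; Atoh1, the factor of granule cell precursors, had no count in the 6 libraries), 17 were more than 2-fold higher in cerebellum and 1 in bulb (at −1.89 on the log2 scale), with a median log2 fold change of 2.52. Fat2, an atypical cadherin of parallel fibres, was among the most abundant protein-coding transcripts of cerebellum, with 2453, 2786 and 2843 CPM against 0.132, 2.35 and 3.61 CPM in bulb. Neurod1, a basic helix-loop-helix factor of granule cells, had 377, 256 and 249.7 CPM against 4.11, 6.06 and 4.84 CPM (5.82 ± 0.22). Barhl1 and Uncx, further granule lineage factors, averaged 12 and 17.1 CPM in cerebellum against 0.0151 and 0.185 CPM in bulb. Il16 averaged 428 CPM in cerebellum and 4.43 in bulb, though its exons overlap those of a neighbouring gene. Cadps2, which primes dense-core vesicles, had 459, 528 and 518 CPM against 33.8, 30.9 and 30.4 CPM (3.99 ± 0.095, adjusted p of the 2-fold test 2.60e-08).

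Some genes often used as granule cell markers differed by less than 2-fold. Reln, the secreted guidance protein that cerebellar granule cells and bulb mitral cells both make, had 882, 1067 and 1081 CPM in cerebellum and 718, 750.1 and 802 CPM in bulb (0.42 ± 0.093, adjusted p 0.00584). Kcnd2, a subunit of A-type potassium channels, averaged 530.2 and 309.9 CPM (0.78 ± 0.084). Slc17a7, the vesicular glutamate transporter of granule cells and of most forebrain excitatory neurons, had 359, 373 and 426 CPM in cerebellum and 338, 307 and 382 CPM in bulb. The 2 groups overlapped, and the log2 fold change of 0.17 ± 0.10 (95% interval −0.058 to 0.40, adjusted p 0.213) did not pass the test. Rbfox3, which encodes the neuronal nuclear antigen NeuN and is strong in granule cells, differed more. It averaged 376 CPM in cerebellum and 147 in bulb (1.35 ± 0.094, adjusted p of the 2-fold test 0.00458).

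**Figure D2:**
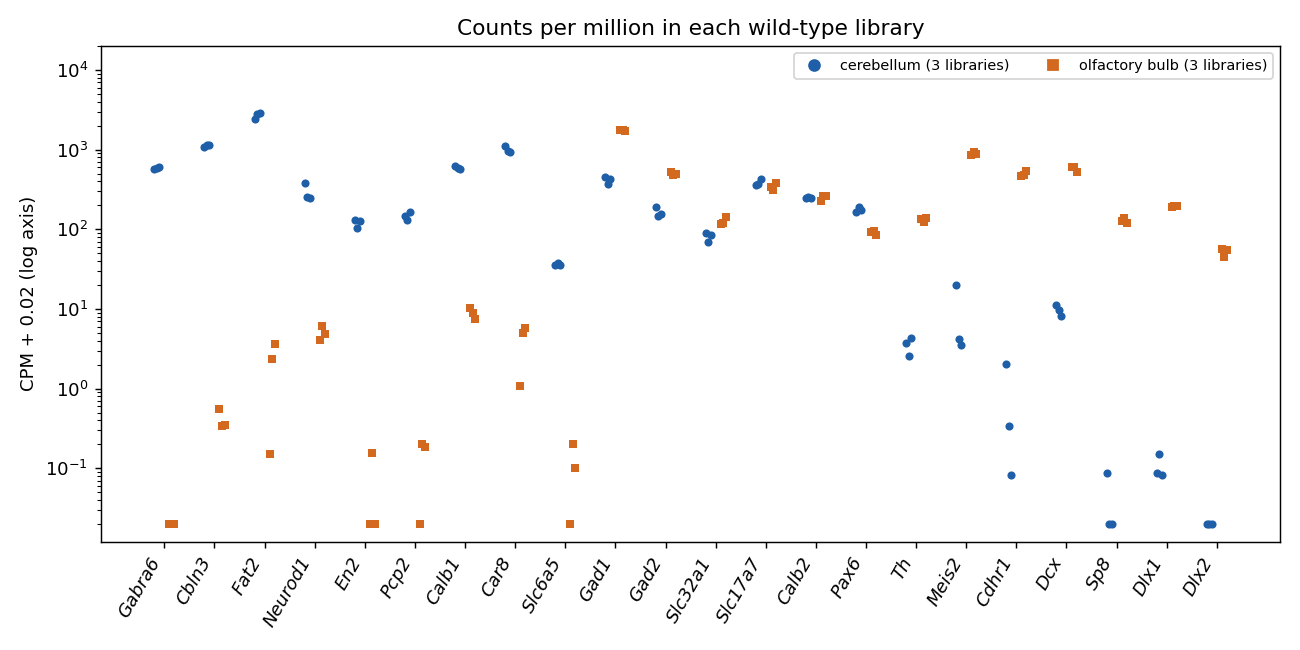
Each point is 1 wild-type library; the y axis is CPM plus 0.02 on a log scale, so points on the lowest line have no counts, and genes run from those high in cerebellum (blue circles) to those high in bulb (orange squares). Gabra6 and Dlx2 each lie on the lowest line in all 3 libraries of 1 region, Slc17a7 and Calb2 overlap between regions, and cerebellum library 1 sits above the other 2 cerebellum libraries for Meis2 and Cdhr1.

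Genes of bulb granule and periglomerular cells were mostly higher in bulb. Of 30 tested (of 31), 19 were more than 2-fold higher in bulb and 4 in cerebellum, with a median log2 fold change of −3.31. Synpr, the synaptic vesicle protein synaptoporin, had 457, 449 and 401 CPM in bulb and 45.8, 34.1 and 34.04 CPM in cerebellum (−3.51 ± 0.13). Tshz1, a zinc finger factor needed for migrating bulb interneurons, had 429.9, 422 and 416 CPM against 54.5, 51.3 and 47.6 CPM. Scgn, the calcium-binding protein secretagogin of newborn bulb interneurons, averaged 35.2 CPM in bulb and was found in 1 cerebellum library at 0.0645 CPM. Etv1, Ppp1r1b and Camk4 were among the 4 members higher in cerebellum. Camk4, a calcium and calmodulin dependent kinase, had 1432, 1556 and 1411 CPM in cerebellum against 219, 203 and 175 CPM, and Ppp1r1b, a phosphatase inhibitor known from dopamine-receptive neurons, 77.8, 76.04 and 69.1 CPM against 5.03, 9.86 and 13.6 CPM.

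Calb2, which encodes calretinin, marks a class of periglomerular cell in bulb and granule and unipolar brush cells in cerebellum. Its levels overlapped, with 248, 253 and 246 CPM in cerebellum and 224, 264 and 259 CPM in bulb, a log2 fold change of −0.0019 ± 0.082 (95% interval −0.19 to 0.18). In cortex and hippocampus, which were not tested against them, it averaged 30.7 and 21.7 CPM. Calb1, which encodes calbindin and marks Purkinje cells as well as a periglomerular class, behaved otherwise: 624, 586 and 572 CPM in cerebellum and 10.2, 8.82 and 7.46 CPM in bulb (6.09 ± 0.12, adjusted p of the 2-fold test 7.63e-09).

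Purkinje cell genes were higher in cerebellum throughout most of the list, with 26 of 32 more than 2-fold higher there, 0 more than 2-fold higher in bulb (1 without cerebellum library 1) and a median log2 fold change of 2.27. Itpr1, the inositol trisphosphate receptor of Purkinje cell calcium stores, was among the most abundant transcripts of cerebellum, with 4459, 4572 and 4657 CPM against 256, 267 and 265 CPM in bulb. Car8, a carbonic anhydrase-related protein that binds this receptor, had 1106, 955 and 945 CPM against 1.06, 4.97 and 5.74 CPM. Pcp2, a regulator of G protein signalling in Purkinje cells, had 148, 132 and 163 CPM against 0, 0.181 and 0.164 CPM (9.95 ± 0.24). Rora, the nuclear receptor mutated in staggerer mice, averaged 623 CPM in cerebellum and 126 in bulb. Pcp4, a calmodulin-binding peptide used as a Purkinje cell marker, differed less: 40.6, 23.9 and 30.8 CPM against 21.6, 21.3 and 19.8 CPM (0.61 ± 0.19, adjusted p 0.0266), and the call was lost without cerebellum library 1 (0.40), cerebellum library 3, bulb library 2 or bulb library 3 (adjusted p 0.0554 to 0.0727). Prkg1, the cyclic GMP dependent kinase of Purkinje cells, was 1 of 2 members higher in bulb under the plain test, at a mean of 50.1 CPM against 30.02 (−0.74 ± 0.14, adjusted p 0.00194). The other member stood farther to the bulb side, at −1.40. Adcy1, the calcium-stimulated adenylyl cyclase of granule cells, was also among the most abundant transcripts of cerebellum, at 3074, 3414 and 3559 CPM against 199, 206 and 219 CPM.

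Among genes of cerebellar interneurons and unipolar brush cells, 8 of 14 tested (of 16) were more than 2-fold higher in cerebellum and 3 in bulb. Pvalb, the parvalbumin of basket, stellate and Purkinje cells, had 253, 214 and 266 CPM in cerebellum and 0, 1.99 and 1.97 CPM in bulb. Tfap2b, a factor of cerebellar inhibitory neurons, averaged 47.4 CPM against 4.76 (3.25 ± 0.20). The 3 members higher in bulb were Nxph1, Grm2 and Eomes. Eomes, a T-box factor of unipolar brush cells in cerebellum and of mitral and tufted cells in bulb, had 28.7, 20.4 and 25.03 CPM in cerebellum and 134, 102 and 107 CPM in bulb (−2.2 ± 0.15, adjusted p of the 2-fold test 6.68e-05).

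Of 18 genes of mitral and tufted cells, 12 were more than 2-fold higher in bulb and 1 in cerebellum, with a median log2 fold change of −1.90. Cdhr1, a protocadherin of bulb output neurons, had 470.4, 476 and 546 CPM in bulb and 2.03, 0.322 and 0.0630 CPM in cerebellum, where library 1 was highest (−8.91 ± 0.56, and −11.27 without that library). Tbx21, a T-box factor of mitral and tufted cells, had 23.7, 22.8 and 28.6 CPM in bulb and 0.0676, 0.0645 and 0.0630 CPM in cerebellum. Doc2g averaged 59.3 CPM in bulb and 1.55 in cerebellum, and Shisa3 77.3 and 0.319 CPM, with exon overlap to a neighbouring gene in each case. Tbr1, a T-box factor of glutamatergic neurons, averaged 17.2 CPM in bulb, 0.991 in cerebellum and 144 in cortex.

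Some transcripts of olfactory sensory neurons, whose cell bodies lie in the nose and whose axons enter the bulb, were present in bulb at modest levels. Of 14 tested genes of the sensory axon and epithelium list (of 17), 5 were more than 2-fold higher in bulb and 2 (Gnal and Ebf1) in cerebellum. The median log2 fold change was −0.45, and 5 were not called by the plain test. The 17 genes summed to 460, 463 and 442 CPM in cerebellum and 362, 379 and 471 CPM in bulb, so the list as a whole did not separate the regions. Omp, the olfactory marker protein gene, had 52.7, 56.7 and 78.3 CPM in bulb and 1.52, 1.93 and 1.702 CPM in cerebellum. Cyp2a5, a cytochrome P450 of olfactory mucosa, was highest in bulb library 3, with 4.504, 12.1 and 64.3 CPM against 0, 0.322 and 0.189 CPM in cerebellum; its 2-fold call (adjusted p 0.0311) was lost without any 1 of the other 5 libraries (0.0523 to 0.116). Ensheathing glia wrap these axons: 5 of 12 of their genes were more than 2-fold higher in bulb, with Frzb, a secreted Wnt inhibitor, at 59.1, 69.7 and 67.9 CPM in bulb and 3.14, 1.93 and 1.83 CPM in cerebellum, and 1 (S100b, also made by Bergmann glia) in cerebellum, or 2 without cerebellum library 2. The median of the 12 was −0.93. Their sum was nevertheless higher in cerebellum, at 1692, 1653 and 1704 CPM against 1553, 1612 and 1572 CPM in bulb.

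Most neuroblast genes that were called were higher in bulb, the region that keeps receiving new neurons in adult mice. Of 23 tested neuroblast and cell cycle genes (of 24), 11 were more than 2-fold higher in bulb and 1 (Stmn2) in cerebellum, with a median log2 fold change of −1.27. Dcx, the microtubule protein doublecortin of migrating neuroblasts, had 609.8, 611 and 524 CPM in bulb and 11.3, 9.67 and 8.195 CPM in cerebellum (−5.89 ± 0.14, adjusted p of the 2-fold test 2.05e-08). Sox11 and Sox4, factors of immature neurons, averaged 12.4 and 82.9 CPM in bulb against 1.31 and 6.57 CPM in cerebellum. Igfbpl1 had 19.6, 16.1 and 16.6 CPM against 0.270, 0.0645 and 0.126 CPM, and Prokr2, the prokineticin receptor that guides neuroblasts into the bulb, 23.2, 33.1 and 37.7 CPM against 0.473, 0.451 and 0.126 CPM. Mki67, the proliferation antigen, was low in both, at 2.12, 4.61 and 3.93 CPM in bulb and 1.05, 0.774 and 1.26 CPM in cerebellum (−1.81 ± 0.41, adjusted p 0.00622), and past the 2-fold test only without bulb library 1 (0.00519).

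The genes of GABA synthesis and transport were read in a cerebellum that also holds GABAergic Purkinje cells and interneurons. Gad1, the larger of the glutamate decarboxylases that make GABA, had 1745, 1745 and 1706 CPM in bulb and 459, 365 and 433 CPM in cerebellum (−2.05 ± 0.093, adjusted p of the 2-fold test 6.11e-06). Gad2 averaged 502 CPM in bulb and 164 in cerebellum (−1.62 ± 0.10). Slc32a1, the vesicular transporter that loads GABA and glycine, differed less, at 117, 121 and 143 CPM in bulb and 89.9, 68.8 and 85.5 CPM in cerebellum (−0.64 ± 0.12, adjusted p 0.00252). Slc6a11, an astrocytic GABA transporter, had 574, 619 and 659 CPM in bulb and 137, 46.6 and 49.5 CPM in cerebellum; its log2 fold change was −2.98 ± 0.47 and −3.67 without cerebellum library 1, and its 2-fold call (adjusted p 0.0137) was lost without any 1 bulb library (0.0617 to 0.107). Slc6a5, the glycine transporter of glycinergic Golgi cells, had 35.3, 37.5 and 35.6 CPM in cerebellum and 0, 0.181 and 0.0820 CPM in bulb (8.17 ± 0.29, and 9.29 without bulb library 2), whereas the glial glycine transporter gene Slc6a9 averaged 97.4 and 104 CPM (adjusted p 0.447). Over the 16 genes of this list, 3 were more than 2-fold higher in bulb and 1 in cerebellum.

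GABA-A receptors are pentamers of alpha, beta and gamma or delta subunits, and the alpha subunit sets much of their kinetics and pharmacology. The alpha genes split between the regions. Gabra6 was more than 2-fold higher in cerebellum and Gabra2, Gabra3 and Gabra5 in bulb. Gabra5 had 119, 113 and 121 CPM in bulb and 3.52, 0.451 and 0.315 CPM in cerebellum (−6.07 ± 0.59, and −8.22 without cerebellum library 1). Gabra3 had 121, 105 and 108 CPM against 19.6, 11.9 and 10.8 CPM (−2.95 ± 0.21), and Gabra2 97.5, 95.04 and 82.7 CPM against 32.4, 37.9 and 40.6 CPM (−1.31 ± 0.11). Gabra4 missed the 2-fold test (−1.32 ± 0.15, adjusted p 0.0612) and passed it with the replicate block (adjusted p 0.0411) and without cerebellum library 1 (adjusted p 0.00450); its exons overlap those of Gabrb1. The 2-fold call of Gabra2 was lost without cerebellum library 1 (−1.21, adjusted p 0.0819), cerebellum library 2 (0.0524) or bulb library 2 (0.0869), while the plain call was kept. Per kilobase of exon, Gabra6 lay at 236 CPM per kilobase within cerebellum, and Gabra2, Gabra3, Gabra4 and Gabra5 at 0.480 to 4.84. Within bulb, Gabra5 and Gabra3 lay at 39.6 and 28.4 CPM per kilobase, above Gabra2 at 12.01 and Gabra4 at 11.01.

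The delta subunit gene Gabrd, the partner of alpha 6 in tonic receptors outside the synapse, had 156, 138 and 167 CPM in cerebellum and 15.6, 28.9 and 26.2 CPM in bulb (2.67 ± 0.19). Gabrg3 went the other way, with 41.3, 50.1 and 42.04 CPM in bulb and 6.93, 2.32 and 3.22 CPM in cerebellum. Gabrb2, which encodes a beta subunit, was higher in cerebellum (0.82 ± 0.11, adjusted p 3.57e-04). Gabbr2, a subunit of the metabotropic GABA-B receptor, had 334, 381 and 388 CPM in cerebellum and 67.6, 67.6 and 66.9 CPM in bulb. Over the 23 GABA and glycine receptor genes tested (of 24), 4 were more than 2-fold higher in cerebellum and 4 in bulb, with a median log2 fold change of −0.13. Without cerebellum library 1 these were 3 and 6, with a median of −0.94.

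**Figure D3:**
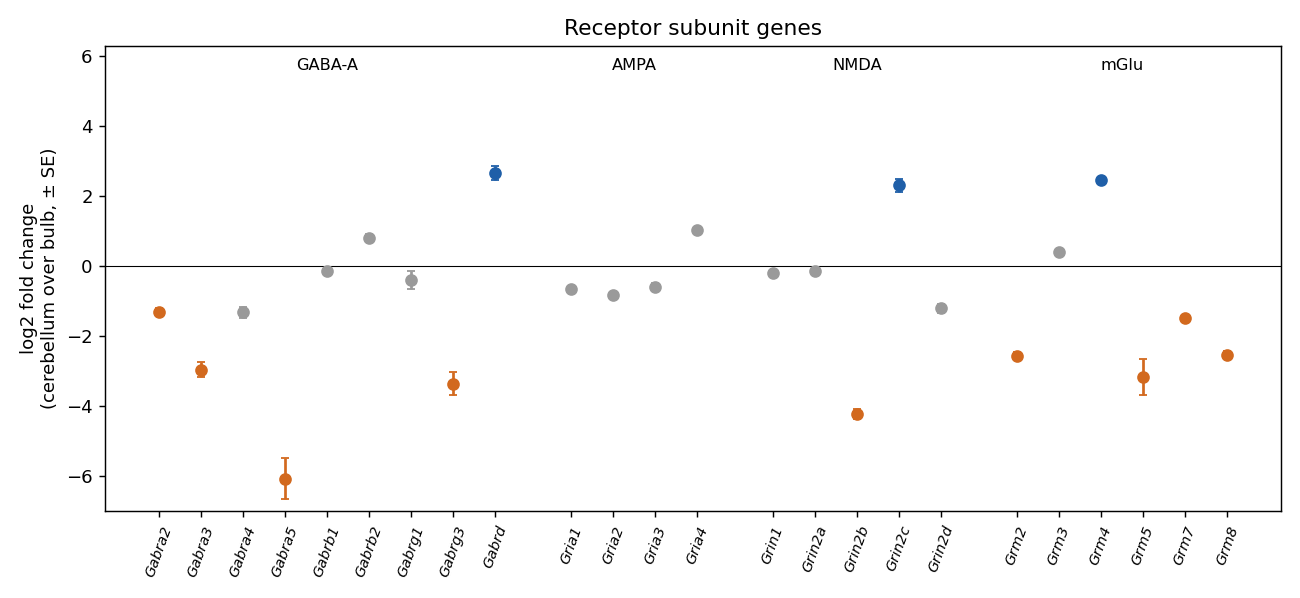
Log2 fold change (cerebellum over bulb, y axis) with its standard error for tested genes of the GABA-A, AMPA, NMDA and metabotropic glutamate receptors (some genes of these families are not shown); blue and orange points passed the more-than-2-fold test in favour of cerebellum and bulb. Gabra6, without a bulb count, is not drawn, and within each family members lie on both sides of 0, as with Grin2c at 2.31 and Grin2b at −4.23.

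Glutamate receptor genes also lay on both sides within families. Of 30 ionotropic receptor and partner genes, 4 were more than 2-fold higher in cerebellum and 9 in bulb, with a median log2 fold change of −0.61. Grin2b, the NMDA receptor subunit of young and forebrain neurons, had 535, 553 and 552 CPM in bulb and 35.5, 25.7 and 25.8 CPM in cerebellum (−4.23 ± 0.14, adjusted p of the 2-fold test 1.20e-07). Grin2c, the subunit that mature cerebellar granule cells take up instead, had 311, 367 and 408 CPM in cerebellum and 51.1, 84.6 and 81.2 CPM in bulb (2.31 ± 0.19). The obligatory subunit Grin1 and the subunit Grin2a did not pass the test, at −0.20 and −0.14 (95% intervals −0.43 to 0.038 and −0.34 to 0.051); with the replicate block Grin1 passed the plain test (−0.19, adjusted p 0.0213). Grid2ip, a scaffold protein of Purkinje cell synapses, averaged 116 CPM in cerebellum and 18.4 in bulb. Among the AMPA receptor genes no member passed the 2-fold test. Gria4, abundant in Bergmann glia and granule cells, was higher in cerebellum (1.05 ± 0.071), and Gria1, Gria2 and Gria3 were higher in bulb (−0.64, −0.83 and −0.58, adjusted p 0.00113 or less). Neto1, an auxiliary subunit of kainate receptors, had 110.2, 98.2 and 93.7 CPM in bulb and 3.79, 3.096 and 2.14 CPM in cerebellum, and Shisa9, an AMPA receptor partner, 39.1, 44.2 and 45.1 and 10.7, 9.09 and 10.7 CPM.

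Of 10 metabotropic glutamate receptor and Homer genes tested (of 11), 3 were more than 2-fold higher in cerebellum and 6 in bulb. Grm4, the presynaptic receptor of parallel fibres, had 792, 776 and 912 CPM in cerebellum and 139, 156 and 153 CPM in bulb (2.47 ± 0.090). Grm5, a receptor that signals through phospholipase C, had 202, 223 and 212 CPM in bulb and 43.5, 12.6 and 12.9 CPM in cerebellum, where library 1 was high (−3.16 ± 0.52, and −4.04 without it); its 2-fold call (adjusted p 0.0160) was lost without any 1 bulb library (0.0663 to 0.124). Grm2, Grm7 and Grm8 were higher in bulb, at −2.56, −1.47 and −2.52 on the log2 scale, and Grm3, a receptor of glia and of inhibitory neurons, lay on the cerebellum side at 0.41 (adjusted p 0.00732). The Homer scaffolds that tie these receptors to calcium stores lay on opposite sides: Homer3 averaged 179 CPM in cerebellum and 15.5 in bulb, and Homer2 33.2 and 294 CPM. Homer3 has exon overlap with a neighbouring gene.

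Among genes of glutamate supply, Slc17a7 was described above. The second vesicular transporter, Slc17a6, had 71.6, 18.2 and 16.01 CPM in cerebellum and 28.6, 28.8 and 27.2 CPM in bulb. Its fold change was set by cerebellum library 1: 0.34 ± 0.59 with it (adjusted p 0.691) and −0.71 without it (adjusted p 0.00385, higher in bulb). Of the plasma membrane transporters, Slc1a6 of Purkinje cells averaged 107 CPM in cerebellum and 4.05 in bulb (4.71 ± 0.15), Slc1a1 47.3 and 182 CPM (−1.94 ± 0.14). Slc1a3, the transporter of Bergmann glia, was higher in cerebellum (0.76 ± 0.081), and Slc1a2, the main astrocytic transporter of forebrain, higher in bulb (−0.43 ± 0.093), both within 2-fold. Over the 10 genes of this list tested (of 11), 1 was more than 2-fold higher in each region.

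Cerebellins are secreted proteins that bridge presynaptic neurexins and postsynaptic delta receptors, and the family divided by member. Cbln1, which holds parallel fibre synapses onto Purkinje cells together, had 100.2, 107 and 109 CPM in cerebellum and 14.7, 5.38 and 4.51 CPM in bulb (3.82 ± 0.36, and 4.41 without bulb library 1), and Cbln3 11.58 ± 0.14 on the log2 scale from the values above. Cbln4 had 25.97, 18.04 and 20.8 CPM in bulb and 2.401, 0.645 and 0.756 CPM in cerebellum (−3.95 ± 0.42, and −4.91 without cerebellum library 1). Cbln2 had 37.8, 35.99 and 38.4 CPM in bulb and 8.96, 0.129 and 0.315 CPM in cerebellum, with library 1 far above the other 2. It was not called with all 6 libraries (−3.38 ± 1.12, adjusted p 0.0613); without cerebellum library 1 its log2 fold change was −7.32 (adjusted p 5.5e-07), and with the replicate block it was −4.21 and past the 2-fold test (adjusted p 0.0405). Of the neurexins, Nrxn3 was higher in bulb (−1.05 ± 0.078), and Nrxn2 lay at 0.028 ± 0.072 (95% interval −0.14 to 0.19). The 24 genes tested (of 26) held 4 more than 2-fold higher in cerebellum and 6 in bulb.

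Ion channel genes, which shape the firing of each cell type, split in both directions. Of 53 potassium channel genes, 12 were more than 2-fold higher in cerebellum and 14 in bulb, with a median log2 fold change of −0.15. Kcnc1, a fast-repolarizing channel of rapidly firing neurons, averaged 824 CPM in cerebellum and 337 CPM in bulb. The 2-fold call of Kcnc1 (adjusted p 0.0241) was lost without bulb library 1 (0.0521), bulb library 2 (0.0655) or cerebellum library 3 (0.0998). Kcnab1, an auxiliary subunit, had 132, 118 and 115 CPM against 8.48, 9.31 and 8.44 CPM. On the bulb side, Kcnj4, an inward rectifier, had 122, 131 and 159 CPM against 1.18, 0.193 and 0.378 CPM in cerebellum. Kcnh3 and Kcna4 averaged 166 and 147 CPM in bulb against 5.22 and 6.99 CPM in cerebellum.

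Of 27 sodium and calcium channel genes, 10 were more than 2-fold higher in cerebellum and 9 in bulb. Scn4b, the subunit behind the resurgent sodium current of Purkinje cells, had 104, 84.2 and 96.7 CPM in cerebellum and 2.78, 2.49 and 3.85 CPM in bulb (4.99 ± 0.17), and Scn2b averaged 446 and 89 CPM. Scn3b had 149, 143 and 160.0 CPM in bulb and 7.303, 2.52 and 2.900 CPM in cerebellum, and Scn3a 173, 202 and 192 and 14, 4.77 and 4.92 CPM, with cerebellum library 1 the highest of its group for both. Cacna1a, the P/Q-type channel mutated in ataxia, had 888, 1124 and 1107 CPM against 299.7, 302 and 291 CPM (1.81 ± 0.098), and its auxiliary subunit Cacna2d2 averaged 207 and 38.3 CPM. The T-type channel genes went apart: Cacna1h had 166, 205 and 204 CPM in bulb and 11.1, 5.93 and 6.11 CPM in cerebellum (−4.58 ± 0.23), while Cacna1g was higher in cerebellum by less than 2-fold (0.64 ± 0.096).

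Neuropeptide genes were mostly higher in bulb: of 25 tested (of 31), 14 were more than 2-fold higher there and 2 in cerebellum (1 when any library other than bulb library 1 was left out), with a median log2 fold change of −2.08. Trh, the thyrotropin-releasing hormone precursor, had 33.5, 36.4 and 35.6 CPM in bulb and 0.0676, 0.0645 and 0 CPM in cerebellum. Npy had 47.03, 38.4 and 37.5 CPM against 6.39, 5.998 and 5.04 CPM, Vip 13.8, 17.9 and 15.8 CPM against 1.12, 0 and 0.0630 CPM, and Crh 9.803, 5.52 and 6.802 CPM against 0.169, 0 and 0 CPM. Without cerebellum library 1, the highest of its group for both, Vip stood at −8.61 and Crh at −9.74, against −4.98 and −6.42 with it. Cck, which tufted cells make, was more than 2-fold higher in bulb (−1.6 ± 0.19, adjusted p of the 2-fold test 0.0114, and 0.0629 without bulb library 3). Penk, the enkephalin precursor of bulb granule cells and cerebellar Golgi cells, passed only the plain test (−1.07 ± 0.085). Sst and Tac1 turned on cerebellum library 1, with Sst at 10.5, 0.580 and 1.89 CPM in cerebellum and 4.11, 3.301 and 4.34 CPM in bulb (0.21, and −1.63 without that library, adjusted p 0.0499), and Tac1 at 3.55, 0.129 and 0.189 and 3.97, 2.71 and 3.36 CPM (−1.24, and −4.3 without it, adjusted p 0.00102).

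Of 14 tested dopamine genes (of 17), 4 were more than 2-fold higher in bulb and 1 in cerebellum (Ppp1r1b). Th stood at −5.2 ± 0.16 on the log2 scale. Slc6a3, the dopamine reuptake transporter, had 16.8, 8.05 and 9.59 CPM in bulb and 0.203, 0.0645 and 0.126 CPM in cerebellum, and Slc18a2, the vesicular monoamine transporter, 4.64, 6.51 and 5.16 and 0.0676, 0.322 and 0 CPM. Drd1, a dopamine receptor gene, was low, with 10.2, 4.16 and 3.69 CPM in bulb, 0.609, 0.193 and 0.252 CPM in cerebellum and a mean of 57.2 CPM in cortex.

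Glial and other non-neuronal genes also differed, and their sums per library show how evenly. The 20 oligodendrocyte genes summed to 4218, 4089 and 3810.3 CPM in the 3 cerebellum libraries and 1697, 1753 and 1975 CPM in bulb, with no overlap. Of these, 18 were higher in cerebellum and 2 (Sox10 and Aspa) in bulb at an adjusted p under 0.05; 9 were more than 2-fold higher in cerebellum, 5 without bulb library 2 and 12 without bulb library 3. Mbp, a main protein of myelin, had 1531, 1534 and 1411 CPM in cerebellum and 517, 566 and 701 CPM in bulb (1.33 ± 0.11, adjusted p of the 2-fold test 0.0155, and 0.0561 without bulb library 2). The 12 genes of oligodendrocyte precursors were less far apart, with 1 more than 2-fold higher in bulb (0 without bulb library 3, cerebellum library 1 or cerebellum library 2) and 0 in cerebellum (1 without cerebellum library 3). Pdgfra, the growth factor receptor that marks these precursors, was higher in bulb (−0.75 ± 0.10).

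All 20 microglia genes lay on the bulb side, and 19 passed the plain test there. Their summed level was 162, 131 and 141 CPM in cerebellum and 359, 464 and 420.2 CPM in bulb, again with no overlap. More than 2-fold calls numbered 13 with all libraries, 6 without cerebellum library 2, 7 without bulb library 2, 8 without cerebellum library 3 and 6 without bulb library 3, while plain calls stayed at 19 or 20. C1qc, a complement component, had 26.9, 27.4 and 25.4 CPM in bulb and 8.08, 7.03 and 7.69 CPM in cerebellum (−1.8 ± 0.13), and Csf1r, the growth factor receptor of microglia, 67.4, 85.4 and 84.3 and 30.9, 24.6 and 30.01 CPM, with exon overlap to a neighbouring gene. Cx3cr1, the fractalkine receptor, had 20.8, 41.1 and 36.5 CPM in bulb and 11.8, 9.35 and 9.77 CPM in cerebellum (−1.68 ± 0.24, adjusted p of the 2-fold test 0.0182, and 0.0578 with the replicate block). That call was also lost without cerebellum library 2, cerebellum library 3, bulb library 2 or bulb library 3 (0.0673 to 0.0976), with the plain call kept. Aif1 was low and not called (−1.04 ± 0.81, adjusted p 0.345), except without bulb library 1, which had no count (−1.51, adjusted p 0.00681).

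Astrocyte genes divided by kind. Of 24 genes of Bergmann glia and astrocytes, 7 were more than 2-fold higher in cerebellum and 2 (Slc6a11 and Fabp7) in bulb, or 1 without any 1 bulb library. Gdf10, a growth factor of Bergmann glia, the radial astrocytes that wrap Purkinje dendrites, had 104, 112 and 120.4 CPM in cerebellum and 4.37, 6.69 and 9.42 CPM in bulb (4.0 ± 0.20). A2m and Hopx averaged 116 and 61.9 CPM in cerebellum against 10.2 and 13.04 CPM in bulb. Timp4, whose exons overlap Syn2, averaged 81.6 and 11.6 CPM. Fabp7, a lipid-binding protein of radial glia and ensheathing glia, had 220.3, 197 and 201 CPM in bulb and 28.7, 25.1 and 34.4 CPM in cerebellum. Gfap was higher in bulb (−1.01 ± 0.13), Aqp4 higher in cerebellum (0.69 ± 0.12), and Aldh1l1, an enzyme found in most astrocytes, did not pass the test (0.16 ± 0.098, 95% interval −0.065 to 0.38).

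Choroid plexus transcripts separated the cerebellum libraries from each other. This tissue secretes cerebrospinal fluid and lies in the fourth ventricle beneath the cerebellum. The 16 genes summed to 2106, 2209 and 169 CPM in the 3 cerebellum libraries and 185, 194 and 203 CPM in bulb. Ttr, the transthyretin that dominates choroid plexus RNA, had 993, 971 and 2.52 CPM in cerebellum and 13.1, 0.904 and 0.656 CPM in bulb. With all libraries it was not called (7.51 ± 2.62, adjusted p 0.0887); without cerebellum library 3 its log2 fold change was 8.11 (adjusted p 0.0034), and with the replicate block 7.57 (adjusted p of the 2-fold test 0.00594). With all libraries 4 of 12 tested members (of 16) were more than 2-fold higher in cerebellum, 14 without cerebellum library 3 and 1 or 2 without any 1 bulb library. Aqp1, a water channel, was the 1 member higher in bulb, at 32.6, 37.5 and 39.1 CPM against 7.13, 5.42 and 0.378 CPM, and its 2-fold call (adjusted p 0.0491) was lost without cerebellum library 2 (0.0956) or any 1 bulb library (0.191 to 0.244). The part of carried-over plexus in any other gene's difference was not tested.

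Vascular and meningeal genes differed less. Of 20 endothelial and mural genes, 0 were more than 2-fold apart in either direction by edgeR's 2-fold test, and 1 and 3 were higher in cerebellum and bulb by the plain test. Cldn5, a tight junction protein of vessels, had 26.4, 26.4 and 23.7 CPM in bulb and 16.5, 14.96 and 13.9 CPM in cerebellum. Of 18 meningeal and fibroblast genes, 2 were more than 2-fold higher in bulb. Islr had 54.6, 57.4 and 67.4 CPM in bulb and 7.17, 5.74 and 6.998 CPM in cerebellum, whereas Col1a1 was high in bulb library 3 alone, with 30.2, 32.2 and 168 CPM in bulb and 27.8, 22.6 and 29.8 CPM in cerebellum (−1.52 ± 0.75, adjusted p 0.172). The blood cell list had 4 of 11 members tested and 0 more than 2-fold apart (3 of 7 higher in bulb without bulb library 1). The brainstem neuron list, meant as a check for carried-over hindbrain nuclei, had 1 of 19 tested. It summed to 1.79, 2.32 and 1.01 CPM in cerebellum and 0.397, 1.72 and 1.97 CPM in bulb. The list holds mainly Hox, Phox2 and monoamine genes, so its low sums say nothing about other carried-over tissue.

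**Figure D4:**
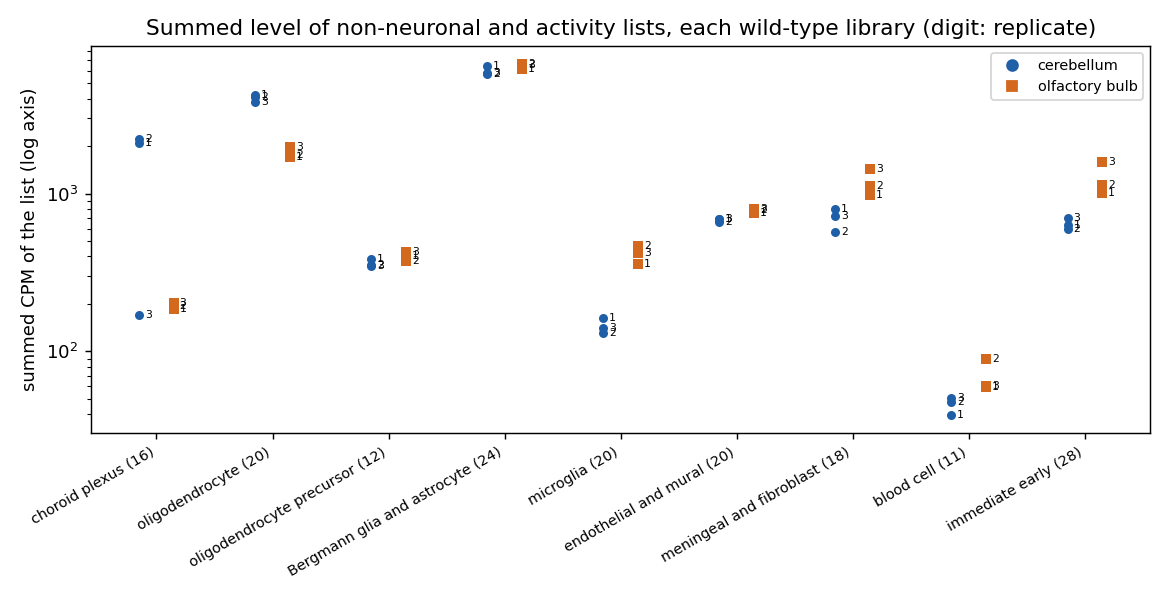
Summed CPM (log y axis) of the members of each non-neuronal or activity list in each wild-type library, labelled with its replicate number; the number of genes summed stands beside each list name. Oligodendrocyte sums of cerebellum (blue) lie above those of bulb (orange), microglia sums below, and for choroid plexus cerebellum library 3, at 169 CPM, lies with the bulb libraries.

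Immediate early genes, which neurons induce within minutes of activity, were higher in bulb in 10 of 28 cases by more than 2-fold and in cerebellum in 1 (Dusp5), with a median log2 fold change of −1.33. The 3 bulb libraries summed to 1003, 1132 and 1597 CPM and the 3 cerebellum libraries to 636, 595 and 703 CPM, library 3 being the highest of the bulb group. Egr3 had 28.7, 29.4 and 34.7 CPM in bulb and 1.66, 0.387 and 0.567 CPM in cerebellum (−4.97 ± 0.38, and −5.98 without cerebellum library 1). Nptx2, a secreted pentraxin that clusters AMPA receptors, had 47.03, 37.1 and 53.6 CPM against 2.54, 0.838 and 0.441 CPM, and Npas4 29.3, 43.9 and 35.3 CPM against 4.87, 9.35 and 4.79 CPM. Arc varied within bulb, at 61.1, 106 and 174 CPM against 27.1, 22.1 and 19.1 CPM in cerebellum (−2.32 ± 0.36, adjusted p of the 2-fold test 0.0130, and 0.0630 without bulb library 2). Fos did not pass the test (−1.32 ± 0.47, adjusted p 0.0589) but did with the replicate block (0.00285), without bulb library 1 (0.0395) and without cerebellum library 3 (0.0308). The 2-fold call of Dusp5 was lost without cerebellum library 3 (adjusted p 0.0640).

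Cdr1as, a circular RNA rich in binding sites for the microRNA miR-7, is the gene removed in the knockout mice of the series. The counts hold a row named Cdr1asG outside the Ensembl genes; how its reads were selected is not given in the sources used here. In wild type it had 4425, 4389 and 3986 CPM in the 3 cerebellum libraries and 1023, 883 and 861 CPM in the 3 bulb libraries (2.21 ± 0.089, adjusted p of the 2-fold test 1.92e-06), so that every cerebellum library lay above every bulb library. Scaled with the 12 wild-type libraries, its mean was 982 CPM in cortex and 501 CPM in hippocampus. In the knockout it had 0, 8 and 4 counts in the cerebellum libraries and 4, 1 and 10 in the bulb libraries, which checks the genotype labels. C230004F18Rik, a noncoding gene antisense to Cdr1, overlapped between regions at 80.7, 135 and 108 CPM and 98.8, 110.0 and 89.8 CPM (0.11 ± 0.17, adjusted p 0.647).

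The region comparison was repeated in the 6 knockout libraries, which share no library with the wild-type comparison. Of 15691 genes tested there, 3362 (21.4%) differed at an adjusted p under 0.05, with 10.3% of genes higher in cerebellum and 11.1% higher in bulb. By the more-than-2-fold test 1256 were called (8%), 3.51% higher in cerebellum and 4.5% higher in bulb. Knockout cerebellum library 1 held 6500197 counts and knockout bulb library 2 held 5175203, fewer than any of the 6 wild-type libraries. The part of this depth in the number of knockout calls was not tested. Calls in the same direction in both genotypes numbered 1200, which is 54.5% of the wild-type calls and 95.5% of the knockout calls, and 0 genes were called in opposite directions. Of the 2016 wild-type calls that were tested in the knockout, 2011 had the same sign, and their median absolute log2 fold change was 2.40 in wild type and 2.39 in knockout. The 5 with the other sign, 1700003M07Rik, Gm13840, Ifit1bl2, Mir195a and Rflna, were all under 3 CPM on average in both regions of the wild type. Some named members had like values in the knockout: Calb1 6.09 in wild type and 6.19 in knockout on the log2 scale, Gad1 −2.05 and −1.93, Th −5.2 and −4.69, Grin2b −4.23 and −4.49, Dcx −5.89 and −5.42. Others, nearly without counts in 1 region, differed more: Slc6a5 8.17 and 10.46, Sp8 −11.66 and −13.57, Tbata 9.89 and 8.48.

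The knockout libraries also give values for the genes whose log2 fold change is given above with and without cerebellum library 1 and moved by over 1.5-fold. Cbln2 stood at −5.32 in the knockout, between its wild-type values with and without that library. So did Cdhr1 at −9.68, Gabra5 at −7.74, Grm5 at −3.59, Slc6a11 at −3.01, Egr3 at −5.95 and Crh at −7.37. Meis2, at −6.45, and Vip, at −4.58, were nearer 0 than either wild-type value, and Cbln4, at −6.03, was farther from 0 than either. Slc17a6 stood at −0.63 and Sst at −2.24, with the sign they took without that library, and Tac1 at 0.16, with the other sign. None of these 3 passed the test in the knockout (adjusted p 0.124, 0.364 and 0.970). Bcl11b, a zinc finger factor on the forebrain list, moved from −5.52 to −7.37 without the library in wild type and stood at −5.65 in the knockout.

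**Figure D5:**
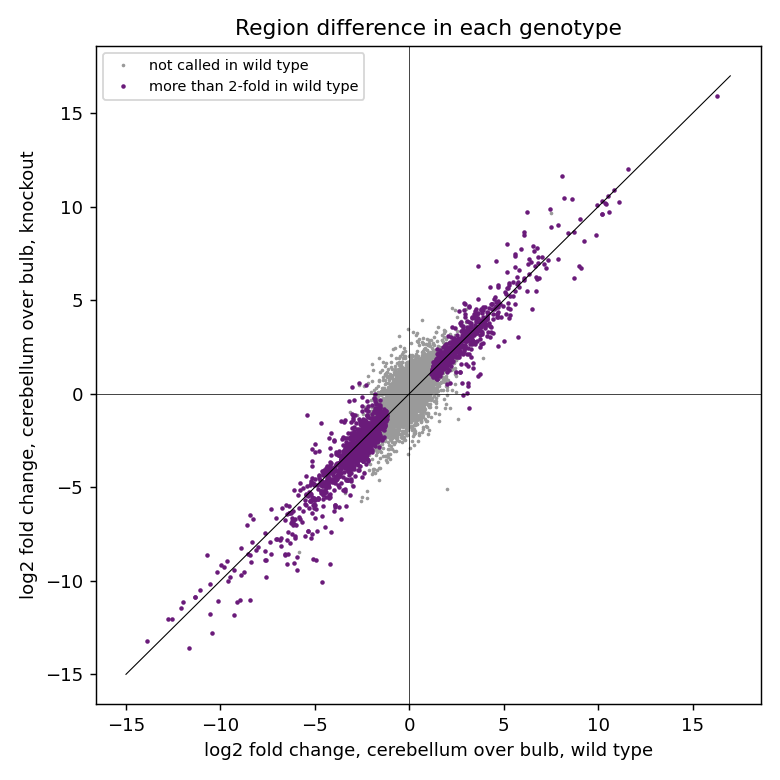
Log2 fold change between cerebellum and bulb in wild type (x axis) and in Cdr1as knockout (y axis) for each gene tested in both, with the line of equality; purple points were called more than 2-fold in wild type. Of the purple points, 2011 of 2016 have the same sign in both genotypes.

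No gene's region difference was shown to depend on genotype. The region by genotype interaction called 0 of 16873 genes (0%) at an adjusted p under 0.05 by edgeR's quasi-likelihood test, with 231 genes (1.37%) at an unadjusted p under 0.05. The smallest p belonged to Eomes, whose log2 fold change was −2.2 in wild type and −0.65 in knockout, an interaction of 1.54 ± 0.23 SE (adjusted p 0.106). It was the only gene called when counts were scaled by library totals (adjusted p 0.0454) and when the replicate number was fitted as a block (adjusted p 0.0457), and its adjusted p ran up to 0.658 over the settings tried. The next smallest p belonged to Cdr1asG, the row of the removed gene (interaction −2.46 ± 0.56 SE, unadjusted p 5.4e-04). Cdr1asG was not called (adjusted p 0.999985), though its knockout libraries held 0 to 10 counts. The test thus missed a region difference that the knockout removed. Its 0 calls therefore do not show that region differences were alike in both genotypes. Arc and Kcnj4, also not called, had interactions of −1.43 and −2.2.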

How the data were processed

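Per the submitters' processing notes, reads were handled with bcl2fastq 2.17.1.14, aligned with STAR 2.5.1b to mm9 and counted with HTSeq 0.6.1p1; the strand setting of counting was not given in the sources used here. Values are the counts per gene that the authors deposited, as whole numbers, from libraries made, per the labels' protocols, by TRIzol extraction, RNase H depletion and a stranded kit. The 5 summary rows were left out. Reads in no feature made up 53.7% to 62.9% of the entries of each wild-type cerebellum and bulb library. In the wild-type cortex and hippocampus libraries, used for context, they made up 20.3% (cortex library 1) to 56.2% (cortex library 2). Names were matched for 32897 of 37620 Ensembl IDs (98.4% of counts) from GENCODE on GRCm38, used for names and exon lengths only. The 6 wild-type libraries were fitted in edgeR 4.0.16 (R 4.3.3, limma 3.58.1) with TMM scaling, filterByExpr (minimum count 10), a robust quasi-likelihood fit and, for the more-than-2-fold rule, a test against a log2 fold change of 1, all two-sided with Benjamini-Hochberg adjustment at 0.05. Intervals are 95%. CPM uses the TMM library sizes. A region without counts got a floor of 3 counts over its 3 libraries; floors cover counting error only. The fit was tested on simulated counts. The 35 gene lists and the comparison itself were chosen with earlier results of these data known. Named genes are the 10 largest differences in each direction at good coverage, core list members, up to 6 further and up to 3 near-zero members per list, the most abundant genes and the smallest interaction p-values; members that went against their list were named after their values were seen, and some genes are not reported here. Same-numbered cerebellum and bulb libraries deviated together (correlations of deviations from the group means 0.109, 0.159 and 0.126, against −0.119 to −0.0250 for different numbers), so the numbers were taken to pair the libraries, on these data and not on the labels. Deviations from a group mean cancel out, so the values for different numbers are not separate evidence. Whether a shared number stands for an animal or for a shared preparation was not tested. The wild-type, knockout and interaction values come from fits without this pairing unless the block is named. Blocked values are given where a call changed. Alternatives were DESeq2 1.42.0, other scalings and filters, a fit of 12 wild-type libraries, the block, and each library left out.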

Additional observations from a re-analysis of the deposited data

How the results depend on the processing

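Over the settings tried, genes called ranged from 5456 to 8084 and more-than-2-fold calls from 1780 to 2587 (DESeq2 1810, replicate block 2070), all within 1.5 times the values reported; leaving out 1 library gave 5456 to 8084 and 1856 to 2587. Library totals moved the median of all genes to −0.0695 and the share of calls higher in cerebellum from 47.2% to 40.3%. Of 203 named genes, 147 were called more than 2-fold, 130 of them under every setting; 145 kept at least the plain call under every setting, all but Aqp1 and Slc4a5. The interaction called 0 genes in the main setting and 1 (Eomes) with library totals and with the replicate block. The block changed no call of a gene described in the report other than those given beside the results. Signs reversed only for genes that had not been called. Calb2 became 0.0127 with DESeq2 size factors, 0.0114 with DESeq2, 0.0447 without a filter, 0.0159 with 12 libraries and 0.00209 with the block, and ran from −0.0542 to 0.0572 with single libraries left out. Slc17a6 became −0.0339 with the block and ran from −0.71 (without cerebellum library 1) to 0.70, and Sst −0.64 and from −1.63 (without the same library) to 0.71. Nrxn2 became −0.0491 with library totals. With single libraries left out, C230004F18Rik ran from −0.0670 to 0.30 and Col1a2 from −0.81 to 0.0904, the reversals coming without cerebellum library 2 and bulb library 3. The cause was not tested. With DESeq2, 5 microglia genes and 4 oligodendrocyte genes passed the 2-fold test, against 13 and 9; the stricter filter left 2 of 4 dopamine calls in bulb and 3 of 5 sensory axon calls, with fewer genes tested. Among the 6 wild-type libraries, precision was lowest for bulb library 1, at 7395560 counts, and for genes under about 1 CPM. The shallowest knockout libraries were bulb library 2, at 5175203 counts, and cerebellum library 1, at 6500197.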
